A study of Mus musculus with 7 samples.

Results

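The sites described are 603 peak summits of the transcription factor IRF4 that were called in mouse regulatory T (Treg) cells lacking RelA (p65) and had no IRF4 summit within 1 kb in wild-type (WT) cells. They were chosen by presence in one IRF4 list and absence from the other, on chromosomes 1 to 19 and X, leaving out 39 regions where 3 or more p65 summits lie at most 50 kb apart. They are called p65KO-only sites here. The p65KO IRF4 list held 4312 summits, of which 4212 lay in the part of the genome considered, so that the choice took 14.3% of them. A further 14 summits met the distance rule but lay in the crowded p65 regions or on unplaced contigs. A site absent from the WT list did not pass the authors' threshold there, which does not show that IRF4 was absent from it.

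All cells were labelled as splenic Treg cells on a C57BL/6 background. IRF4 was immunoprecipitated from WT cells (3 samples) and from p65KO, that is RelA-deficient, cells (2 samples), both stimulated through CD3 and CD28 over 48 h. The p65 protein was immunoprecipitated from WT cells (2 samples) given PMA and ionomycin over 30 min. The agents, times and genotype differ between the p65 and the p65KO IRF4 samples, and the sources used here do not give the age or sex of the mice or the way Rela was deleted. Each group came as 1 pooled list of summits, without values per sample, so nothing below has a replicate error and no difference between genotypes can be set against the spread between animals.

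IRF4 is induced by T cell receptor signalling and is required for the differentiation of effector Treg cells. It binds DNA weakly alone and mostly together with partners, such as BATF and JUN at composite elements in T cells. RelA is an activating subunit of canonical NF-κB, which is released to the nucleus after antigen receptor or TNF receptor signalling and binds κB elements. Both pathways start from the antigen receptor, and the comparison asks where IRF4 was mapped when RelA was missing.

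The p65KO-only sites were weak peaks. The authors' score is a −log10 significance per peak, and it was used for description because the lists were cut on it. Its median over the 603 sites was 17.4 (interquartile range 14.8 to 21.1, range 7.50 to 57.1). The median was 27.3 over all 4212 p65KO summits considered, and 30.5 (20.8 to 50.5) over the 3609 that had a WT summit within 1 kb, called shared sites here. WT-only sites, the 1800 WT summits without a p65KO summit within 1 kb, had a median of 18.1 (14.9 to 23.7). They were 33.1% of the 5433 WT summits considered. Both kinds of one-genotype site therefore came from the low end of their own list.

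The share of p65KO-only sites was lower in each higher score bin. Below a score of 15 they were 158 of 433 p65KO summits (36.5%, 95% exact binomial interval 31.9 to 41.2). From 15 to 20 they were 253 of 786 (32.2%, 28.9 to 35.6), and from 20 to 25 they were 117 of 652 (17.9%, 15.1 to 21.1). The share was 8.28% (5.93 to 11.2) of 459 summits from 25 to 30 and 5.07% (3.47 to 7.12) of 611 from 30 to 40. From 40 to 50 it was 1.40% (0.458 to 3.25), 5 of 356, and at 50 or more a single site remained among 915. The WT list had the same order with larger shares in every bin, from 68.6% (64.99 to 72.1) below 15 to 1.72% (1.04 to 2.67) at 50 or more. At a score of 30 or more there were 37 p65KO-only and 216 WT-only sites, and at 50 or more 1 and 19. With the WT list reduced to its 4312 highest summits, the length of the p65KO list, there were 1007 p65KO-only and 976 WT-only sites. Partners were mostly 1 to 1, so lists of equal length must leave similar numbers without a partner. These 2 counts therefore do not show whether either genotype had more such sites. These intervals cover counting error over summits only. The WT list rests on 3 samples and the p65KO list on 2, and read depth is unknown from summit lists, so the difference in numbers cannot be told apart from a difference in depth.

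**Figure D1:**
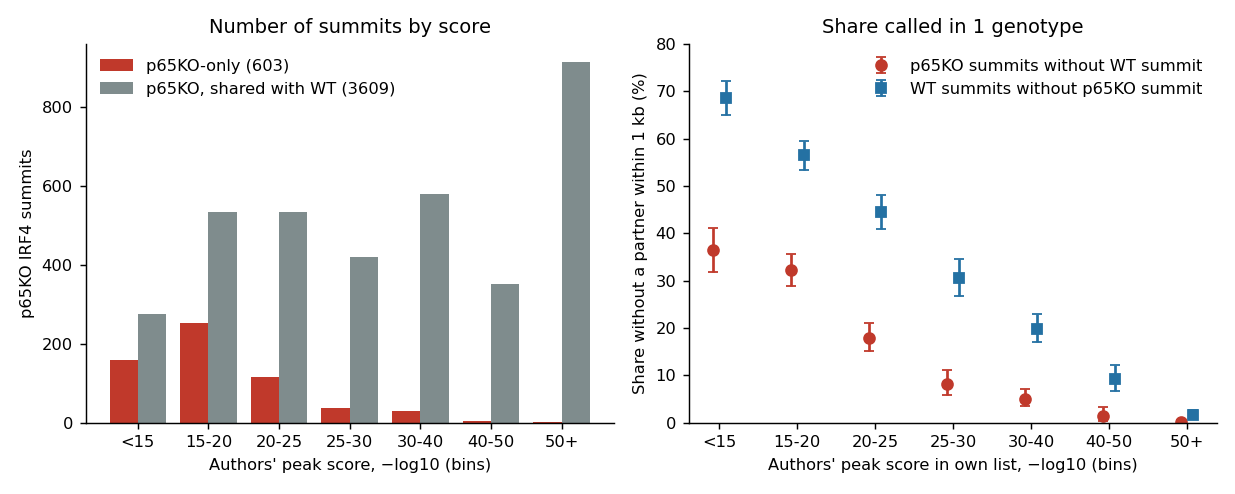
Left, number of p65KO IRF4 summits (vertical axis) in bins of the authors' −log10 score, for the 603 p65KO-only sites and the 3609 shared sites. Right, share of summits without a partner of the other genotype within 1 kb (vertical axis, %) in the same bins, for the p65KO list (circles) and the WT list (squares), with 95% exact binomial intervals; both shares fall with the score, from 36.5% and 68.6% below 15 to 1 of 915 and 1.72% at 50 or more.

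The highest p65KO-only site lay on chromosome 1 at 137495189 (mm9, 1-based, as are all positions here). It scored 57.1 and ranked 761 of the 4312 p65KO summits, and the nearest WT summit was 165 kb away, with a score of 39.4. Another p65KO-only site lay 36.9 kb from it. The next 2 lay on chromosome 11, at 5906427 (score 47.9) and 86152667 (45.8), where WT summits with scores of 15.4 and 12.5 were 4.34 kb and 7.63 kb away. The WT summit beside 86152667 was itself WT-only. The remaining sites above 40 were chromosome 12 at 92020105 (44.2), chromosome 3 at 130857695 (42.8) and chromosome 5 at 66399701 (41.4). Their nearest WT summits, 205 kb, 14.6 kb and 21.9 kb away, had scores of 125, 71.5 and 92.5 in the WT list. The 10 highest sites ended with chromosome 9 at 124036432 (39.0), chromosome 10 at 127985325 (37.0), and chromosome 16 at 38181417 and chromosome 12 at 107254645 (36.5 each). None of these 10 had a p65 summit within 100 kb, the nearest being 665 kb from the site on chromosome 9.

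Few sites owed their place to the 1 kb limit. The 3 nearest to it from outside lay 1028 bp (chromosome 17 at 44596171, score 15.1), 1038 bp (chromosome 1 at 36323372, 21.7) and 1109 bp (chromosome 2 at 57976243, 21.2) from a WT summit. The 3 nearest from inside, which count as shared, lay 981 bp (chromosome 5 at 53785036, 12.3), 954 bp (chromosome 2 at 69930529, 22.8) and 919 bp (chromosome 9 at 32329842, 10.3) away. Only 24 p65KO-only sites lay between 1 and 2 kb from a WT summit, and 16 shared sites lay between 500 bp and 1 kb. By contrast 3553 of the 3609 shared sites had their WT summit within 200 bp.

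The p65KO-only sites were scattered among the IRF4 sites of WT cells. The median distance to the nearest WT summit was 63.6 kb (17.8 to 194), and for WT-only sites the median distance to the nearest p65KO summit was 64.8 kb (19.2 to 199). Within 10 kb of a WT summit lay 105 p65KO-only sites (17.4%, 14.5 to 20.7), and within 10 kb of a p65KO summit 288 WT-only sites (16.0%, 14.3 to 17.8). More than 100 kb away lay 238 (39.5%) and 722 (40.1%). These distances start at 1 kb by the rule and are given as a description.

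**Figure D2:**
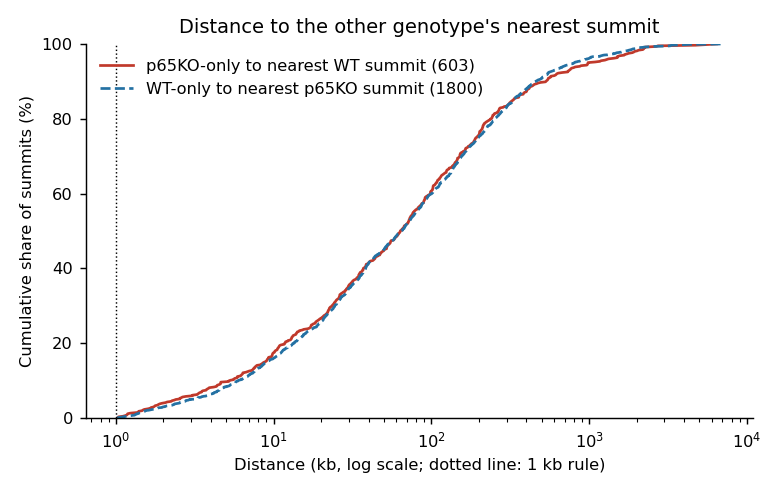
Cumulative share of sites (vertical axis, %) by distance in kb on a log axis, for 603 p65KO-only sites to the nearest WT summit (solid) and 1800 WT-only sites to the nearest p65KO summit (dashed). The curves lie close together, with medians of 63.6 kb and 64.8 kb.

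The nearest WT summit had a p65KO summit within 1 kb at 72 of the 105 sites within 10 kb (68.6%), at 171 of 260 from 10 to 100 kb (65.8%) and at 162 of 238 farther away (68.1%), against 66.9% of all WT summits considered. It scored higher than the p65KO-only site in 73.3%, 76.2% and 76.5% of these groups. The lower quartile of all WT summits considered was 18.1, above the median of 17.4 over the p65KO-only sites. Most WT summits at any place thus had a higher number as score than a typical p65KO-only site, and these shares are not particular to neighbours. A score need not mean the same in both lists, so this does not rank their signal. The highest of the 105 by score, after the 2 separate sites on chromosome 11 named above, were chromosome 13 at 100004162 (32.5, with a WT summit of 41.6 at a distance of 5600 bp) and chromosome 1 at 133007201 (32.0, with a WT-only summit of 34.0 at 1861 bp). The sites on chromosomes 13 and 1 and those of the next 3 paragraphs were picked with their values in view.

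At 9 positions a p65KO-only site and a WT-only site lay within 2 kb of each other. The shortest such distance was 1109 bp, on chromosome 2, from 57976243 in p65KO (21.2) to 57977352 in WT (16.8). On chromosome 5, 73678098 in p65KO scored 11.4 and 73676911 in WT 27.5. On chromosome 2, 121846551 in p65KO scored 26.9 and 121848209 in WT 18.7, at a distance of 1658 bp. In 6 of the 9 the p65KO score was the higher of the pair, though a score need not mean the same in both lists. Whether these are separate sites or 1 broad region with its summit placed differently was not tested.

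A small number of p65KO-only sites lay next to each other. There were 10 pairs within 10 kb, holding 20 of the 603 sites (3.32%), and 4 of the pairs were under 1 kb apart. Any other p65KO summit lay within 10 kb of 93 p65KO-only sites (15.4%) and of 709 of 3609 shared sites (19.6%). Such pairs, and the runs of the next paragraph, were not counted among WT-only or shared sites. Whether their number is unusual was not tested. In 5 pairs both sites were over 100 kb from a WT summit. The highest of these was on chromosome 8, at 105388923 (32.2) and 105389569 (12.4), with no WT summit for 2256 kb. On chromosome 12, 118791547 (25.5) and 118792034 (16.7) were 487 bp apart and 106 kb from a WT summit. On chromosome 5, 143665095 (25.3) and 143666235 (27.1) were 1140 bp apart and 115 kb from a WT summit, and each had a p65 summit.

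With a gap of 100 kb, 17 sites formed 5 runs of 3 or 4. The run on chromosome 9 from 51966880 to 52047393 held 4 sites with scores of 33.1, 21.0, 13.8 and 35.3 and had 2 WT summits within 50 kb of it, neither WT-only. The run on chromosome 13 from 32772153 to 32847404 held 3, with scores of 16.5, 33.1 and 29.2, and also had 2 such WT summits. The run on chromosome 11 from 98366426 to 98470383 held 4 sites of lower score (14.8 to 18.3) and had 6 WT summits within 50 kb. No run had a p65 summit within 50 kb. At the other extreme, 30 of the 603 sites (4.98%) lay over 1 Mb from a WT summit. Of WT-only sites, 70 of 1800 (3.89%) lay that far from a p65KO summit. From any other p65KO summit, 35 p65KO-only sites (5.80%) and 149 of 3609 shared sites (4.13%) were over 1 Mb away. Of the 30, 23 were also over 1 Mb from any other p65KO summit. The most remote was chromosome 14 at 112768251, with 6.45 Mb to the nearest IRF4 summit of either list.

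The sites were found on all 20 chromosomes. On the autosomes they made up from 10.04% of the p65KO summits of chromosome 6 to 19.4% of those of chromosome 5, and 585 of 4155 in all (14.1%, 13.04 to 15.2). On chromosome X they were 18 of 57 (31.6%, 19.9 to 45.2). In the WT list the share of WT-only sites was 17 of 58 on X (29.3%, 18.1 to 42.7) and 1783 of 5375 on the autosomes (33.2%, 31.9 to 34.4). Chromosome X thus held 2.99% of p65KO-only sites, 1.08% of shared sites and 0.944% of WT-only sites. This contrast was noticed among 20 chromosomes and is given without a test.

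The median score of the 57 p65KO summits on X, p65KO-only sites included, was 21.0, against 27.4 on the autosomes. The medians of the WT list were 28.4 and 26.6. The 39 shared p65KO sites on X had a median of 31.4 (interquartile range 18.7 to 59.3), against 30.5 (20.8 to 50.5) over all shared sites. Among p65KO summits below the p65KO median score, 17 of 35 on X (48.6%, 31.4 to 66.0) and 531 of 2059 on the autosomes (25.8%, 23.9 to 27.7) were p65KO-only. At or above that median they were 1 of 22 on X (4.55%, 0.115 to 22.8) and 54 of 2096 on the autosomes (2.58%, 1.94 to 3.35), with overlapping intervals. The 18 sites on X had a median score of 17.4. The highest were 163645272 (35.3), 98667711 (25.8) and 64031807 (21.95). As the sex of the mice is not given, their sex and genotype cannot be told apart here.

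**Figure D3:**
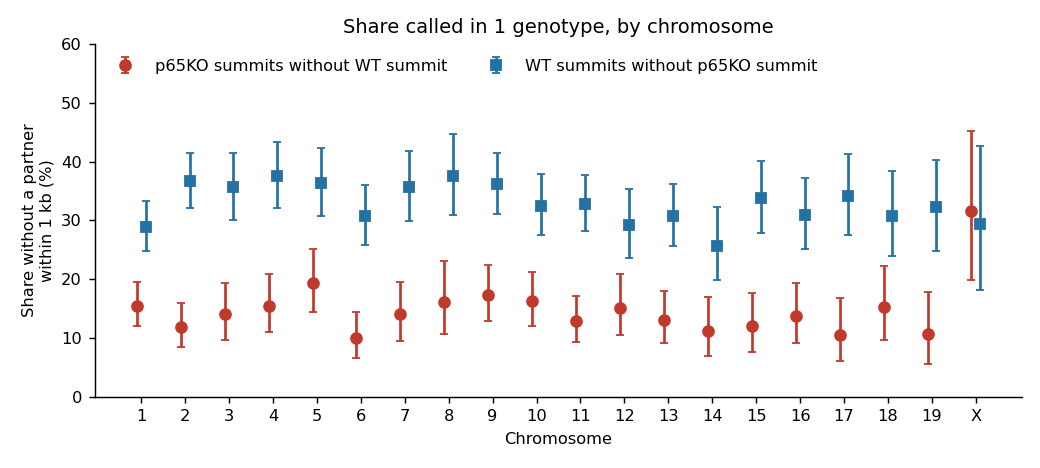
Share of summits without a partner of the other genotype within 1 kb (vertical axis, %) on each chromosome, for the p65KO list (circles) and the WT list (squares), with 95% exact binomial intervals. The p65KO share is between 10.04% and 19.4% on the autosomes and 31.6% on X, where the list has 57 summits.

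The last comparison asked whether the p65KO-only sites lay where RelA was mapped in WT cells. A p65 summit lay within 1 kb of 19 of the 603 (3.15%, 1.91 to 4.88), against 2.4% of all 4212 p65KO summits considered. The share was 19 of 1800 WT-only sites (1.06%, 0.637 to 1.64), against 1.88% of all WT summits considered, and 82 of 3609 shared sites (2.27%, 1.81 to 2.81). The choice of sites used the p65 list, since regions crowded with p65 summits were left out, so these shares are a description without a test. That step took away 37 WT-only and 11 p65KO-only sites with p65. With the crowded regions kept, the shares were 30 of 614 p65KO-only (4.89%, 3.32 to 6.90), 56 of 1844 WT-only (3.04%, 2.30 to 3.93) and 129 of 3656 shared sites (3.53%, 2.95 to 4.18). These intervals overlapped, while with the crowded regions left out those of p65KO-only and WT-only sites did not. Neither is a test of a difference.

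Outside the crowded regions the share with p65 was higher for p65KO-only than for WT-only sites in each score range examined. These are the sets left after the step that took away 37 WT-only and 11 p65KO-only sites with p65. The order is therefore a description and adds no support. The ranges were applied to both lists alike, though a score need not mean the same in each. Below a score of 20 a p65 summit was near 2.43% (1.17 to 4.43) of p65KO-only, 1.04% (0.519 to 1.85) of WT-only and 1.86% (1.04 to 3.04) of shared sites. From 20 to 30 the shares were 4.52% (1.83 to 9.08), 0.956% (0.311 to 2.22) and 1.26% (0.650 to 2.18). At 30 or more they were 5.41% (0.661 to 18.2), 1.39% (0.287 to 4.01) and 2.98% (2.25 to 3.86). The counts of p65KO-only and WT-only sites with p65 were small. They were 10 of 411 and 11 of 1061 below 20, and 7 of 155 and 5 of 523 from 20 to 30. At 30 or more they were 2 of 37 and 3 of 216. Within each range the intervals of p65KO-only and WT-only sites overlapped, which is not a test of a difference.

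Of the 19 p65KO-only sites with p65, 17 had their p65 summit within 100 bp, and the median distance was 37 bp. It was 95 bp at WT-only and 13 bp at shared sites. The median p65 score at the 19 was 10.6 (range 3.15 to 35.9). It was 14.8 at the 19 WT-only sites with p65, and 9.995 over all 307 p65 summits of the part of the genome considered. Only 5.86% of these 307 lay beside a p65KO-only site, so not all of the p65 summits at the 19 were among them. A site just outside a crowded region can have its p65 summit inside it. At the 82 shared sites the median p65 score was 43.9, and their median IRF4 score was 38.2 in p65KO cells against 18.0 at the 19. The peak names of all 3 lists state No-Input, so background that any antibody would give was not subtracted, and its part in these coincidences was not tested.

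**Figure D4:**
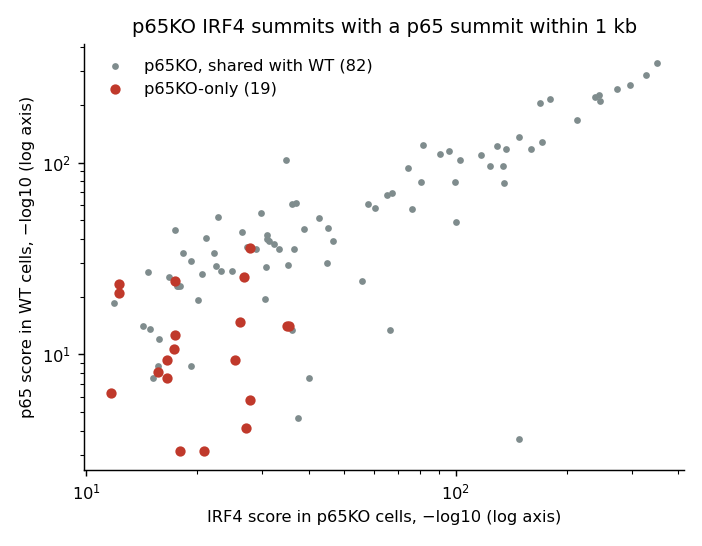
Score of the p65 summit in WT cells (vertical axis) against the IRF4 score in p65KO cells (horizontal axis), both −log10 values on log axes, for p65KO IRF4 summits with a p65 summit within 1 kb. The 19 p65KO-only sites (large points) stay at or below 35.9 for p65 and 35.3 for IRF4, while the 82 shared sites extend to 329 and 351.

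The 5 sites with the highest p65 scores were spread over 5 chromosomes. Chromosome 14 at 112768251 had a p65 score of 35.9 at a distance of 6 bp and an IRF4 score of 27.8, and it was also the site most remote from any other IRF4 summit. Chromosome 17 at 39982609 followed with 25.2 at 698 bp and an IRF4 score of 26.7, and lay 1233 bp from a WT-only summit. Chromosome 8 at 57945549 had 24.0 at 96 bp and an IRF4 score of 17.4. Chromosome 5 at 91356431 had 23.2 at 43 bp and an IRF4 score of 12.3. Chromosome 16 at 14337147 had 20.8 at 291 bp and an IRF4 score of 12.3. By IRF4 score the leading sites with p65 were chromosome X at 163645272 (35.3) and chromosome 14 at 8465697 (35.0), each with a p65 score of 14.1, at 40 and 68 bp.

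The other 12 sites with p65 had p65 scores from 3.15 to 14.8 and IRF4 scores from 11.7 to 27.7. They included the pair on chromosome 5 at 143665095 and 143666235, with p65 scores of 9.35 and 4.15 at 35 and 3 bp, and chromosome 2 at 20821669, with 14.8 at 28 bp. Chromosome 5 held 5 of the 19 sites. Of the 19, 12 were over 100 kb from a WT IRF4 summit, which made 5.04% (2.63 to 8.64) of the 238 p65KO-only sites that far away. Among the 365 nearer ones it was 7, or 1.92% (0.774 to 3.91). Of the 722 WT-only sites over 100 kb from a p65KO summit, 9 (1.25%, 0.572 to 2.35) had p65. This division by distance was made after the values were seen and was not tested.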

How the data were processed

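The authors deposited 1 list of 1 bp peak summits for each of the 3 groups, which every sample's label in that group names. MACS2 2.1.0, Subread, featureCounts and the build mm9 are named in the submitters' processing notes; the sources used here do not give the settings or how replicates were pooled. The deposited score is a −log10 significance value, of p or q; the cut-offs in the list names are q = 1e-06 (IRF4) and 0.05 (p65). No depth per sample is known.

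Summits were converted to 1-based positions. Sites were defined by the distances given in the text. Shares have exact binomial intervals; the planned Fisher's exact tests of p65 proximity are not used, because the rule drew on the p65 list (Python 3.11.15, scipy 1.17.1, pandas 2.3.3). Classification was checked on simulated lists. Alternatives changed the partner distance, score range, regions, list length and p65 distance. By rule the 10 highest sites, the 5 with the highest p65 scores and 3 on each side of the 1 kb limit were named; all other named sites were picked with their values in view. Members, lists and tests were chosen with earlier results of these data known. The gene table at hand is of another build, so planned promoter, motif and gene comparisons were not run and sequences are not shown.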

Additional observations from a re-analysis of the deposited data

How the results depend on the processing

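The count of 603 stayed within 1.5 times itself with partner distances of 500 bp, 2 kb and 10 kb (619, 579 and 498), with the crowded p65 regions kept (614), on autosomes alone (585) and, both added after the data were seen, below the p65KO median score (548) and with 1 summit per 10 kb (593). It was 1007 with the WT list reduced to the length of the p65KO list, where fewer WT summits can be partners, and 55 above the p65KO median score. The odds ratio of having a p65 summit, p65KO-only against WT-only sites, is a description, since the rule used the p65 list. It was 3.05, and 1.64 with the crowded regions kept, the one setting without that step. It was 5.55 above the median score (4 of 55 against 4 of 289 sites) and 2.14 with the reduced WT list. In the other 8 settings, all of which leave the crowded regions out, it was 2.2 to 3.5. Against shared sites it was 1.40, from 1.2 to 2.71 in 10 settings, and 0.992 with the reduced WT list, the opposite direction; the cause was not tested. No paired analysis was possible because each group came as 1 pooled list without columns per replicate, and for the same reason no replicate could be left out. The promoter and motif alternatives were not run, for want of an mm9 genome and annotation. Unknown depth limits every count of sites called in 1 genotype.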

Other observations

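Scores recurred exactly within each list. The 603 p65KO-only sites had 405 distinct scores, 260 of them shared their score with another such site, and 18 scored exactly 17.4 (17.3856 before rounding). On chromosome X the 18 sites had 11 distinct scores. Values that recurred at least 15 times formed a ladder in each IRF4 list. Between scores of 13 and 19 its steps were 0.829 to 0.891 in the p65KO list (7 values) and 0.685 to 0.749 in the WT list (9 values). The steps did not overlap, so an equal difference in score need not stand for an equal difference in signal in the 2 lists. This was seen after the data were examined.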
